A study of Mus musculus with 78 samples.

Results

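BAF complexes, the mammalian SWI/SNF chromatin remodellers, use ATP to move nucleosomes and are assembled from families of interchangeable subunits. In neural progenitors the complex carries BAF53a (gene Actl6a), BAF45a (Phf10) and SS18 (Ss18), and when these cells leave the cell cycle and become neurons the subunits give way to the homologues BAF53b (Actl6b), BAF45b and BAF45c (Dpf1 and Dpf3) and CREST (Ss18l1). The exchange is known as the neuronal BAF switch, and the repressor REST and the microRNAs miR-9* and miR-124 are known to act on it. Here 10 genes were followed: Actl6a and Actl6b, Ss18 and Ss18l1, Phf10 with its homologues Dpf1, Dpf2 and Dpf3, and the alternative ATPases Smarca4 (BRG1) and Smarca2 (BRM). The members were the probe sets annotated to these genes, 1 for each gene, namely the one whose mean over the 78 arrays was highest, so that 10 of 18193 measured genes are described, and all 10 passed the filter on low values in every comparison.

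The arrays are Affymetrix arrays of mouse brain RNA in 26 groups of 3, called biological replicates in the labels, at embryonic day 14 (E14), at birth (P0) and at postnatal day 14 (P14). The series asks whether mutants of the LIS1 neuronal migration complex alter gene expression alike. Wild types of mixed background A and mixed background B were taken at all 3 ages, and inbred wild types (WT129s6 in the titles) at P0 and P14. Lis1 mutants (gene Pafah1b1, a dynein regulator) were ko/+ or ko/cko, a null allele over a conditional allele, at all 3 ages, and so were Ndel1 mutants (a LIS1 and dynein partner), while Dcx ko/Y mutants (doublecortin) were taken at E14 and P0. Further groups were 14-3-3 epsilon ko/ko (gene Ywhae) at E14, the same genotype inbred at P0, Ndel1 ko/+ inbred at P0 and a group of Ndel1 ko/+ at P14 with a mixed background in its label. No Cre line is given in the sources used here for the conditional alleles, the mixed backgrounds are not described further, and the tissue is labelled as brain with no region. P-values measure the spread between these samples, and the number of arrays limits the precision.

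Some arrays stand apart. At P0 and P14 the first principal component (39.76% and 58.92% of the variance) set the arrays on 2 sides, and each group lay wholly on 1 of them. Mixed B stood with Dcx ko/Y and with the Ndel1 ko/+ and ko/cko groups whose labels give no background. Mixed A stood with the Lis1, inbred and mix-labelled groups. The difference between the 3' and 5' actin control probe sets, which grows as RNA degrades, did not overlap at P0 (0.12 to 0.21 log2 units on the arrays with mixed A, 0.27 to 0.45 on those with mixed B) and overlapped at P14 (0.50 to 0.96 and 0.63 to 0.72). The same difference for the Gapdh control overlapped at both ages. It was -0.12 to 0.13 with mixed A and -0.19 to 0.10 with mixed B at P0, and -0.06 to 0.12 and -0.11 to 0.03 at P14. At E14 the mean of 4 hindbrain and spinal cord markers ranged from 4.75 to 7.77 log2 units over the 6 wild-type arrays, the 4 lowest being mixed A replicates 2 and 3 and mixed B replicates 1 and 2. Of the 3 arrays whose E14 label is 14-3-3 epsilon ko/ko, replicates 1 and 2 keep Ywhae (the group spans 9.97 to 12.92), and those labelled Ndel1 ko/cko at E14 hold Ndel1 at 9.82 ± 0.04 (mean ± SD, n = 3) against 9.90 ± 0.02 in mixed B. Ndel1 was also not lower in the groups labelled Ndel1 ko/+ inbred at P0 (10.06 ± 0.17, against 9.91 ± 0.09 in the inbred wild type) and mix-labelled Ndel1 ko/+ at P14 (10.55 ± 0.04, against 10.39 ± 0.06 in mixed A). In the other Ndel1 ko/+ groups it was, for example at E14 (9.45 ± 0.02). Markers of the labelled tissue were present and moved with age: the mean of 8 neuronal markers was 10.68 to 11.09 in wild types at E14 and 11.59 to 11.82 at P14, and that of 7 markers of dividing cells was 9.99 to 10.61 at E14, 7.58 to 7.90 at P0 and 6.10 to 6.50 at P14. The neuronal mean joins genes of both directions. From P0 to P14, limma gave 4 of the 8 higher and 2 lower in the mixed backgrounds (34.3% and 22.1% of all genes). In the inbred wild type it gave 4 and 4 (38% and 33.8%).

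RefSeq promoter sequences (250 bases before the start of the gene to 50 after it, GRCm38.p6) were found for 9 of the 10 genes, and those of the BAF53 pair are shown because many of the comparisons that follow turn on it. Capitals mark the GC box GGGCGG, the CCAAT box CCAAT and the right part of the site bound by REST, GGACAGC, each searched on both strands. The GC box stands in 35.7% of the 32851 promoters of this length, CCAAT in 37.4% and GGACAGC in 6.56%. The Actl6a promoter, at chr3:32708296-32708595 on the plus strand, holds 21 CpG dinucleotides and 3 GC boxes. The Actl6b promoter, at chr5:137553296-137553595 on the plus strand, holds 23 CpG dinucleotides, 2 GC boxes that share a letter, 3 CCAAT boxes and 1 GGACAGC.
Actl6a: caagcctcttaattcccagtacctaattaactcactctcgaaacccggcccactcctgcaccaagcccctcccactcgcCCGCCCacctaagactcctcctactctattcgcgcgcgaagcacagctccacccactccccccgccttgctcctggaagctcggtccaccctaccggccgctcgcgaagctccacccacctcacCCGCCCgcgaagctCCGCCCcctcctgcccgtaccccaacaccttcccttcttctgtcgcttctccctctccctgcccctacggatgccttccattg
Actl6b: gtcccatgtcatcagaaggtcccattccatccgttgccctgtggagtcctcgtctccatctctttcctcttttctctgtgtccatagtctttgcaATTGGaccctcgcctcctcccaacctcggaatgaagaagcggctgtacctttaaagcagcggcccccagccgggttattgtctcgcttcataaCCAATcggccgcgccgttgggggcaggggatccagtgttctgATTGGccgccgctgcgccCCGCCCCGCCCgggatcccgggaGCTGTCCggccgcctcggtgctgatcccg
The left part of the REST site, TTCAGCACC (in 0.371% of all promoters), the TATA box TATAAA (13.6%) and 4 forms of the E2F site (TTTCCCGC, TTTGGCGC, TTTCGCGC and TTTGCCGC, 0.323% to 1.07%) were in none of the 9 promoters, whereas the GC box is in 8 of them, all but that of Dpf2. The third sequence is the mature miR-9-3p (miR-9*), shown because Actl6a is a described target of it, from chr7:79505318-79505339 on the plus strand inside Mir9-3, with the seed, bases 2 to 8, in capitals.
mmu-miR-9-3p: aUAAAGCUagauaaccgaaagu
A match of letters is a description and not a site of binding.

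Between E14 and P0 the progenitor subunits Actl6a and Ss18 fell steeply in both mixed backgrounds, Dpf2, Phf10 and Smarca4 fell less, and none of the neuronal subunits was called in both backgrounds. A change is a log2 difference of means ± its standard error, n = 3 arrays in each group. Over both mixed backgrounds it is the mean of their 2 differences, and the ± is the larger of their 2 standard errors. That ± does not measure how far the backgrounds differ. A gene is called where limma's adjusted p is under 0.05 in mixed A and mixed B with the same sign. In all, 5 of the 10 genes were called lower and 0 higher, beside 49.8% of the 12864 genes tested (35% lower and 14.8% higher), so the share called is that of the background. The median change of the 10 genes was -0.41 and that of all genes tested -0.19, which quantile normalisation over all arrays moved to +0.06. With quantile normalisation 4 of the 10 were called lower and 2 higher, while over all genes the split moved from 1903 higher and 4508 lower to 3339 and 2540.

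Actl6a, an actin-related subunit of progenitor BAF, lay at 9.49, 9.70 and 9.68 log2 units in mixed A and at 9.66, 9.53 and 9.67 in mixed B at E14. At P0 it lay at 7.44, 7.71 and 7.56 in mixed A and at 8.38, 8.27 and 8.23 in mixed B. Its mean thus went from 9.63 to 7.57 in mixed A and from 9.62 to 8.29 in mixed B, a larger fall in mixed A. This difference between backgrounds was not tested. The 2 ages do not overlap in either background. Nor do they over all groups, with 9.22 to 10.03 in the 24 arrays at E14 and 6.75 to 8.39 in the 30 at P0. The change was -1.69 ± 0.12 (adjusted p = 6.91e-09, limma), or -1.50 relative to the median gene, and it stayed at -1.62 ± 0.18 (adjusted p = 1.82e-08, limma) without mixed A replicates 2 and 3 at E14, which earlier results had named for low hindbrain or meningeal markers. Without all 4 E14 wild-type arrays of low hindbrain level, chosen after seeing the data, it was -1.65 ± 0.19 (adjusted p = 1.05e-05, limma). Both settings leave 1 array in a group, which is assumed to vary like the others. In whole tissue, fewer cells of a type and less RNA per cell cannot be told apart. All 7 measured markers of dividing cells and all 6 of radial glia and progenitors fell in the same step. Their medians were -2.19 and -1.20 relative to the median gene. Their part in the fall of Actl6a was not tested.

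Actl6b, its neuronal counterpart, lay at 8.31, 8.15 and 7.95 in mixed A and at 7.80, 7.92 and 7.82 in mixed B at E14. At P0 it reached 8.96, 9.08 and 8.59 in mixed A but 8.08, 8.07 and 8.05 in mixed B. The arrays of the 2 ages are thus separate in both backgrounds, widely in mixed A and narrowly in mixed B. The change was +0.74 ± 0.12 in mixed A (adjusted p = 1.64e-05, limma) and +0.22 ± 0.12 in mixed B (adjusted p = 0.127, limma), beside 68.5% and 61.7% of genes called in each alone. Actl6b was thus not called over both (adjusted p = 0.154, limma), and the difference between backgrounds in this step was not tested. With quantile normalisation its mean change was +0.75 ± 0.13 and was called (adjusted p = 0.00282, limma).

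Ss18, whose product is a subunit of progenitor BAF, fell as clearly as Actl6a. It lay at 9.73, 9.90 and 10.12 in mixed A and 9.64, 9.69 and 9.61 in mixed B at E14, and at 8.45, 8.38 and 8.29 and 8.22, 8.19 and 8.13 at P0. All arrays at P0 are below all at E14, and the change was -1.50 ± 0.09 (adjusted p = 3.71e-12, limma). Ss18l1, which encodes the calcium-responsive coactivator CREST, kept to 9.21 to 9.50 and 9.37 to 9.44 in mixed A and B at E14, and 9.40 to 9.60 and 9.30 to 9.46 at P0. Its change was +0.06 ± 0.08 (adjusted p = 1, limma), and +0.31 ± 0.08 with quantile normalisation (adjusted p = 0.0445, limma), the second member called higher under that setting. All 3 probe sets of Ss18 were called lower in this step, at -1.50, -1.60 and -1.32.

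Among the BAF45 family, which reads histone tails through paired PHD fingers, Phf10 changed by -0.61 ± 0.09 (adjusted p = 9.31e-06, limma) and Dpf2, the broadly expressed BAF45d, by -0.73 ± 0.07 (adjusted p = 1.04e-07, limma). The neuronal Dpf1 lay at 8.89, 9.27 and 8.99 in mixed A and 9.15, 9.14 and 9.15 in mixed B at E14. At P0 it reached 10.01, 9.87 and 9.93 in mixed A, whereas mixed B held 8.95, 9.25 and 9.21. The gap between ages was therefore seen in mixed A (+0.88 ± 0.12, adjusted p = 1.55e-06, limma) with -0.01 ± 0.12 in mixed B (adjusted p = 0.941, limma), and the gene was not called over both. Dpf3 was measured at 6.50 to 6.87 over the 24 arrays at E14 and at 6.32 to 6.90 over the 30 at P0, and was not called (-0.23 ± 0.10, adjusted p = 0.307, limma).

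The ATPases differed in the same step. Smarca4 changed by -0.59 ± 0.10 (adjusted p = 0.000406, limma) and Smarca2 by -0.12 ± 0.10 (adjusted p = 0.536, limma). The call of Smarca4 was lost with quantile normalisation (-0.34 ± 0.10, adjusted p = 0.0774, limma), without mixed A replicates 2 and 3 at E14 (-0.47 ± 0.11, adjusted p = 0.0654, limma) and without the 4 E14 arrays of low hindbrain level (-0.42 ± 0.11, adjusted p = 0.0842, limma). A second probe set of Smarca2 gave +0.76 ± 0.17 (adjusted p = 0.00215, limma), so the probe sets of this gene disagree, while the second of Smarca4 gave -0.64 ± 0.13.

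**Figure D1:**
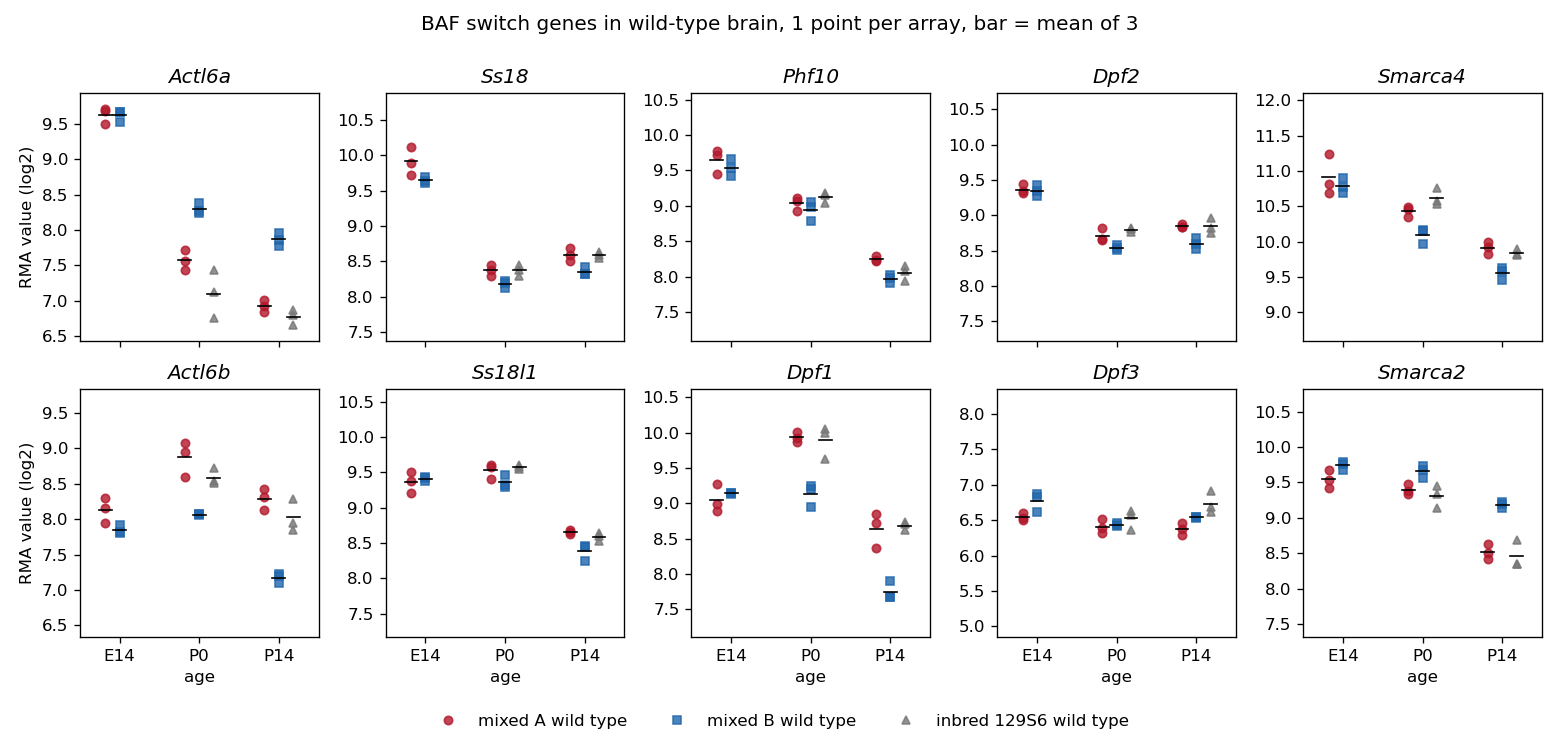
RMA values (log2, vertical axis, all panels spanning the same range) of the 10 genes in wild-type brain at E14, P0 and P14 (horizontal axis), with progenitor or general subunits above and neuronal homologues or alternatives below. Each point is 1 array and each bar a group mean of 3. Actl6a and Ss18 drop between E14 and P0, and Actl6b and Dpf1 are higher in mixed A and inbred than in mixed B after birth.

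From P0 to P14 the neuronal subunits Dpf1, Ss18l1 and Actl6b were called lower in both mixed backgrounds, as were Phf10, Smarca2, Actl6a and Smarca4. These are 7 genes lower and 0 higher, beside 56.4% of 12864 genes called (22.1% lower and 34.3% higher). The median change of the 10 was -0.61, against +0.13 for all genes tested. With quantile normalisation 7 were again called lower and 0 higher, and the split over all genes was 3894 higher and 3382 lower in place of 4408 and 2848. In the inbred wild type 7 were lower and 1 higher, beside 71.7% of genes called (33.8% lower and 38% higher).

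Dpf1 fell by 1.34 ± 0.12 log2 units in the mixed backgrounds (adjusted p = 4.85e-09, limma) and by 1.21 ± 0.12 in the inbred one (adjusted p = 1.09e-08, limma). At P14 it lay at 8.36, 8.85 and 8.72 in mixed A, at 7.67, 7.68 and 7.90 in mixed B and at 8.71, 8.62 and 8.73 in the inbred wild type, below every E14 wild-type array. The second probe set of Dpf1, near the filter on low values, moved less. Its mean went from 5.004 to 4.736 in mixed A and from 5.406 to 5.165 in mixed B. Ss18l1 fell by 0.92 ± 0.08 (adjusted p = 2.08e-09, limma) and by 0.99 ± 0.08 in the inbred wild type (adjusted p = 1.84e-10, limma). Its second probe set, whose type can share sequence with other genes, gave +0.02 ± 0.13 in the mixed backgrounds, so that fall rests on 1 of 2 probe sets.

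Actl6b lay at 8.42, 8.32 and 8.13 in mixed A, 7.20, 7.10 and 7.22 in mixed B and 7.84, 8.29 and 7.94 in the inbred wild type at P14. Each background is below its own P0 level with no overlap. The change was -0.74 ± 0.12 (adjusted p = 0.000281, limma) and -0.56 ± 0.12 in the inbred wild type (adjusted p = 0.000349, limma). Markers that rise in this step include all 4 measured oligodendrocyte genes, by a median of 4.78 log2 units relative to the median gene, all 4 of microglia and 4 of 5 of astrocytes, while 4 of 8 neuronal markers rose and 2 fell. Their part in the falls of the neuronal subunits was not tested.

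Actl6a went on falling, to 6.93, 6.84 and 7.01 in mixed A and 7.96, 7.86 and 7.78 in mixed B (-0.54 ± 0.12, adjusted p = 0.00508, limma). In the inbred wild type the change was -0.33 ± 0.12 (adjusted p = 0.023, limma), and it was no longer called with quantile normalisation (-0.26), without inbred replicate 1 at P0 (-0.32), inbred replicate 3 at P0 (-0.16) or inbred replicate 1 at P14 (-0.27). Ss18, which had fallen before birth, lay at 8.69, 8.50 and 8.58 in mixed A and 8.33, 8.32 and 8.42 in mixed B. Its change was +0.20 ± 0.09 (adjusted p = 0.0867, limma) and +0.22 ± 0.09 in the inbred wild type (adjusted p = 0.0266, limma). That inbred call was lost without replicate 2 or 3 at P0 (+0.22 and +0.18) and without replicate 1 or 3 at P14 (+0.20 and +0.22). The second probe set of Ss18 gave +0.01 ± 0.11 in the mixed backgrounds, whereas the arrays of the main one at P14 lie above those at P0 in each mixed background with no overlap, so the probe sets disagree.

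Phf10 changed by -0.88 ± 0.09 (adjusted p = 1.29e-07, limma), but its second probe set by +1.01 ± 0.15 (adjusted p = 0.000203, limma), the opposite direction. Smarca2 changed by -0.68 ± 0.10 (adjusted p = 0.000197, limma) and its second probe set by -0.27 ± 0.17 (adjusted p = 0.318, limma). Smarca4 changed by -0.53 ± 0.10 (adjusted p = 0.000145, limma), and both of its probe sets were called lower. Dpf2 (+0.10 ± 0.07) and Dpf3 (+0.04 ± 0.10) were not called. For Actl6a all 3 probe sets were called lower in this step, at -0.54, -0.93 and -1.87, whereas between E14 and P0 the last of them gave -0.89 ± 0.24 (adjusted p = 0.148, limma).

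A list of 20 other BAF subunits was set beside the 10 genes. Between E14 and P0, 13 were called lower and 0 higher, beside 35% and 14.8% of all genes, with a median of -0.21 relative to the median gene against -0.22 for the 10. With quantile normalisation 5 were lower and 2 higher. Among them Pbrm1, the polybromo subunit of the PBAF complex, was at -1.16 ± 0.12 (adjusted p = 4.57e-06, limma), Smarce1 (BAF57) at -0.88 ± 0.13 (adjusted p = 0.000128, limma) and Brd7 at -0.80 ± 0.11 (adjusted p = 2.47e-06, limma), while the neuronal transcription factor Bcl11a, also a BAF subunit, was at +0.26 ± 0.10 (adjusted p = 0.44, limma). From P0 to P14, 12 were lower and 0 higher, with a median of -0.75 relative to the median gene against -0.74 for the 10, and 15 and 0 with quantile normalisation. Bicra changed by -1.61 ± 0.12 (adjusted p = 8.81e-11, limma) and Smarce1 by -1.39 ± 0.13 (adjusted p = 2.35e-08, limma). The other 8 of the 20 were not called in the second step, where 22.1% of all genes were lower and 34.3% higher.

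Of 8 genes around the switch, 6 were lower and 0 higher between E14 and P0 (35% and 14.8% of all genes), or 5 and 0 with quantile normalisation. Rest, which encodes the repressor of neuronal genes, changed by -1.26 ± 0.13 (adjusted p = 5.42e-08, limma). Its partner in repression Rcor2 was at -1.59 ± 0.16 (adjusted p = 3.39e-08, limma) and the splicing repressor Ptbp1 at -1.32 ± 0.08 (adjusted p = 1.63e-11, limma). From P0 to P14, 3 were lower and 2 higher (22.1% and 34.3% of all genes), the same counts as with quantile normalisation. Ptbp1 went on at -0.91 ± 0.08 (adjusted p = 4.35e-08, limma), while Ctdsp1, a phosphatase that acts with REST, rose by 0.73 ± 0.16 (adjusted p = 0.00061, limma). The host transcript of miR-124, Mir124a-1hg, was at -1.64 ± 0.34 in the first step (adjusted p = 0.00271, limma) and +1.36 ± 0.34 in the second (adjusted p = 0.0344, limma). In mixed A at P0 its arrays spread from 5.42 to 7.30. The host of miR-9-3p, Mir9-3hg, was called in neither step (-0.29 ± 0.14 and -0.11 ± 0.14), and a host transcript is not a measure of the mature microRNA.

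**Figure D2:**
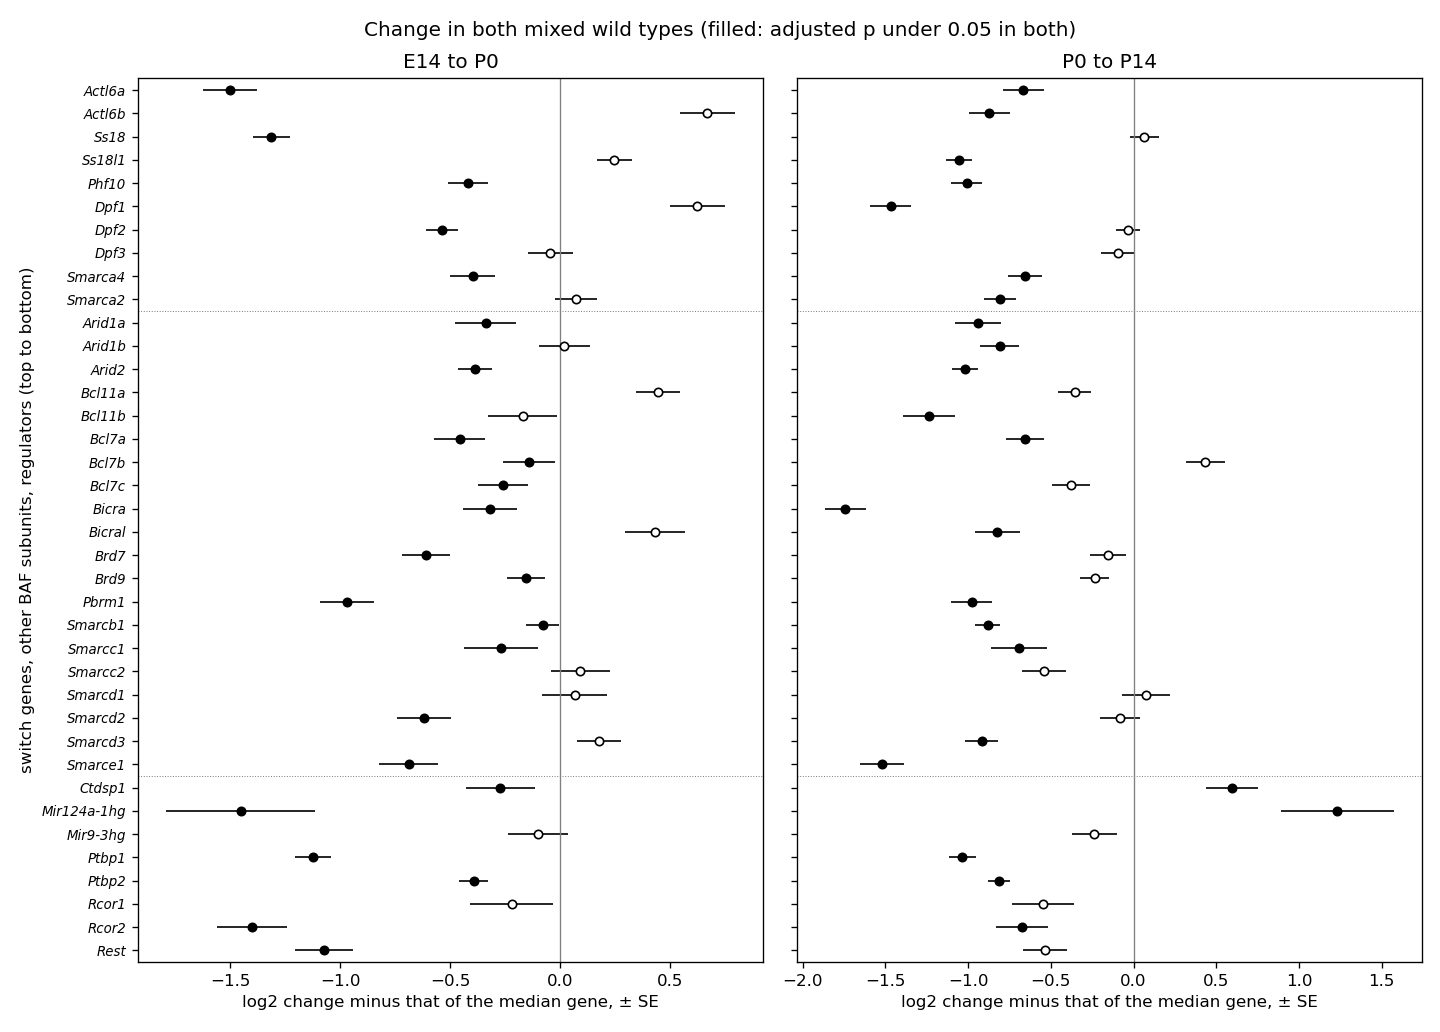
Mean change of both mixed wild types in log2 units minus that of the median gene (horizontal axis), ± the larger SE of the 2 backgrounds. The vertical axis holds the 10 genes, the 20 other BAF subunits and the 8 regulators, top to bottom. Filled points were called. Actl6a (-1.50) and Ss18 (-1.31) are the lowest of the 30 BAF genes in the first step, and most BAF genes lie left of 0 in the second.

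To follow each exchange over all 26 groups, the difference between the paired genes was taken in each array and set to 0 at the mean of the E14 wild types, as a description with no test. For Actl6b minus Actl6a it ran from -0.59 to +0.50 log2 units over the 24 arrays at E14, from 1.28 to 3.61 over the 30 at P0 (median 2.72) and from 0.65 to 4.09 over the 24 at P14 (median 2.73). No array at P0 or P14 overlaps E14, in any genotype. At P0 the mean was 2.94 ± 0.25 in mixed A, 3.12 ± 0.45 in the inbred wild type and 1.41 ± 0.07 in mixed B (SD, n = 3), and at P14 it was 2.99 ± 0.21, 2.89 ± 0.22 and 0.94 ± 0.12. The arrays of mixed B lie below those of the other wild types at both ages, with no overlap. The Actl6a probe set in this difference is of a type that can share sequence with other genes.

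Ss18l1 minus Ss18 ran from 1.35 to 1.92 at P0, its mean being 1.55 for mixed A, 1.57 for mixed B and 1.60 for the inbred wild type, and fell back to 0.12 to 0.93 at P14. Unlike the BAF53 pair it held nearly one level on both array sides. Dpf1 minus Phf10 was 0.59 to 1.68 at P0 and 0.19 to 1.38 at P14, whereas Dpf3 minus Phf10 was 0.11 to 0.77 at P0 and 0.75 to 1.82 at P14. Dpf3 itself barely moved, so the second rise follows the fall of the Phf10 probe set. The other Phf10 probe set rose from P0 to P14, from 6.16 to 7.46 in mixed A and from 6.64 to 7.37 in mixed B. Both BAF45 differences at P14 thus depend on which Phf10 probe set is taken. Smarca2 minus Smarca4 overlapped between ages, with -0.36 to +0.38 at E14, -0.29 to +0.90 at P0 and -0.37 to +1.06 at P14.

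**Figure D3:**
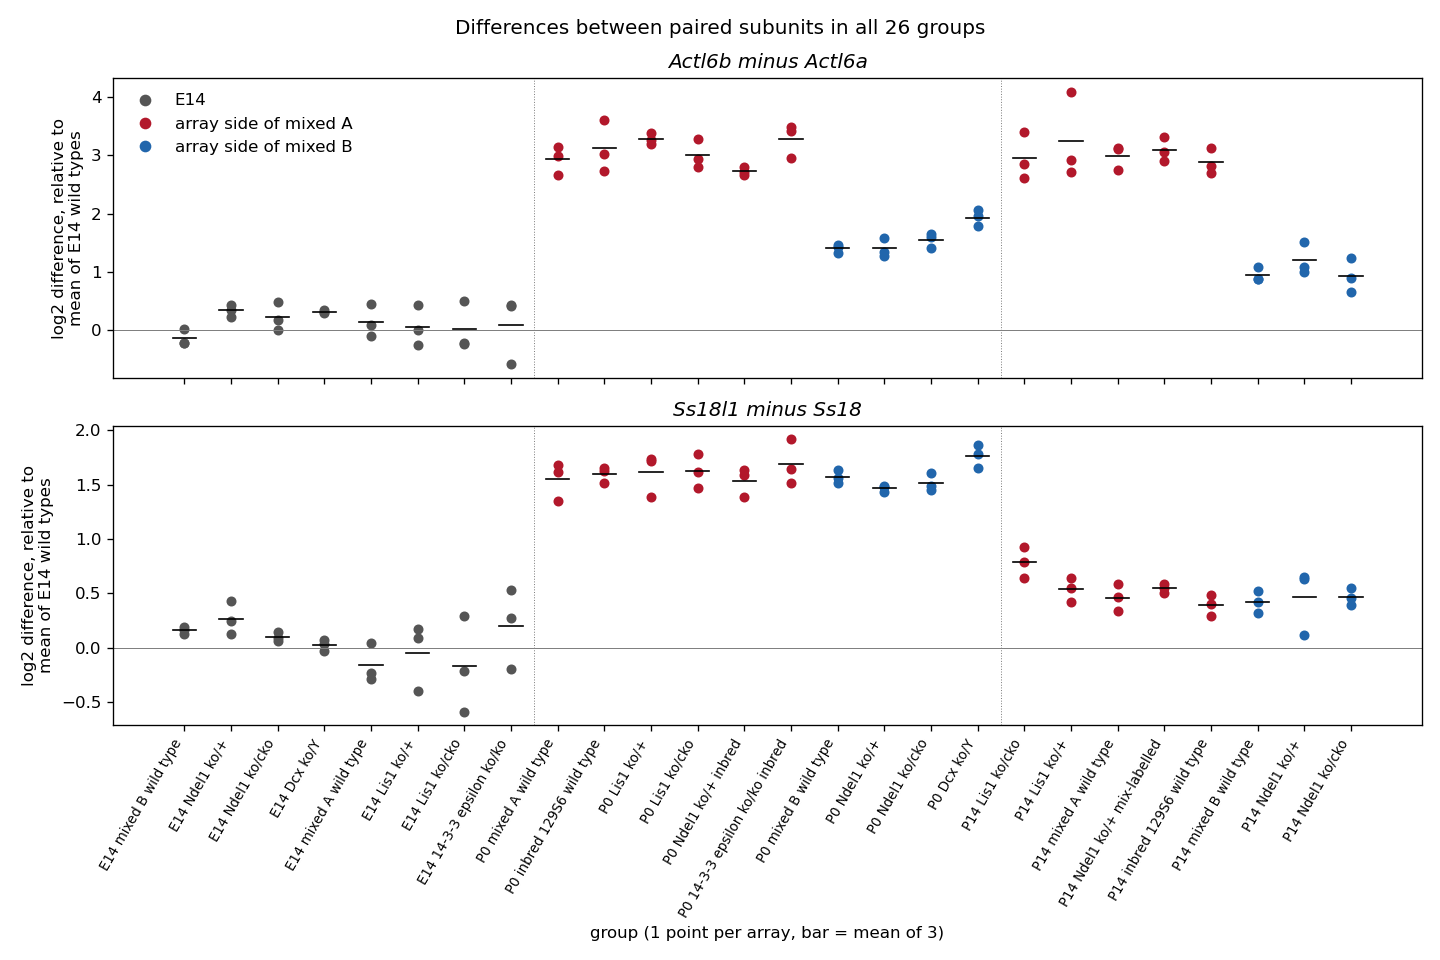
Actl6b minus Actl6a (top) and Ss18l1 minus Ss18 (bottom), as log2 differences relative to the mean of the E14 wild types (vertical axis) in all 26 groups (horizontal axis), 1 point per array and a bar at the mean of 3. The BAF53 pair lies near 0 at E14 and on 2 levels after birth that follow the array side, while the other pair peaks at P0 on both sides.

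Mixed A and mixed B were next compared directly. At E14 none of the 10 genes was called by limma, beside 0.0681% of 11743 genes, and Dpf3 and Ss18 had an unadjusted p under 0.05. At P0, Actl6b (+0.81 ± 0.13, adjusted p = 7.75e-05, limma), Dpf1 (+0.80 ± 0.11, adjusted p = 1.22e-05, limma) and Smarca4 (+0.34 ± 0.08, adjusted p = 0.00356, limma) were higher in mixed A and Actl6a lower (-0.72 ± 0.15, adjusted p = 0.000681, limma). These 4 calls stand beside 28.7% of 11779 genes (18.1% higher and 10.7% lower). Smarca2 was at -0.26 ± 0.10 (adjusted p = 0.0555, limma), and was called with quantile normalisation (-0.29 ± 0.10, adjusted p = 0.0394, limma). At P14, 8 were called, beside 52.7% of 12296 genes (37.5% higher and 15.2% lower): Actl6b (+1.12 ± 0.18), Dpf1 (+0.89 ± 0.12), Smarca4, Phf10, Ss18l1 and Dpf2 (+0.36 to +0.25) were higher, and Actl6a (-0.94 ± 0.15) and Smarca2 (-0.67 ± 0.11) lower. With quantile normalisation Phf10, Ss18l1 and Dpf2 were no longer called, the split over all genes being 3738 higher and 2352 lower in place of 4605 and 1873, and Dpf2 and Ss18l1 were also lost without mixed A replicate 2 (+0.24 and +0.26) or mixed B replicate 2 (+0.21 and +0.21). In mixed A after birth the neuronal Actl6b and Dpf1 were thus higher and the progenitor gene Actl6a lower, but Smarca4 and, at P14, Phf10 were also higher, and Dpf3 was called at neither age.

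Over all arrays, mutants included, some of these genes also kept the array sides apart. At P0, Actl6a lay at 6.75 to 7.71 on the 18 arrays of the side of mixed A and at 7.82 to 8.39 on the 12 of the side of mixed B, and Dpf1 at 9.62 to 10.37 and 8.95 to 9.45, while Actl6b (8.46 to 9.24 and 7.84 to 8.67) and Smarca4 (10.24 to 10.88 and 9.97 to 10.62) overlapped. At P14 neither these nor Actl6b (7.84 to 8.89 and 6.90 to 7.30) nor Smarca2 (8.28 to 8.69 and 8.87 to 9.21) overlapped between the 15 and 9 arrays, whereas the ranges of Smarca4, Phf10, Ss18l1 and Dpf2 did. The sides are no groups of the study but were found in these values, and what sets them cannot be told apart from the groups they hold. The main probe set of Actl6a, like the second of Ss18l1, is of a type that can share sequence with other genes. The probe sets of Actl6a disagree here: at P14 the difference between mixed A and mixed B was -0.94 (the main one) and -0.74 ± 0.28 (adjusted p = 0.0303, limma) in 2 of them and +0.12 ± 0.15 (adjusted p = 0.517, limma) in the other. The second probe set of Smarca2 likewise gave +0.17 ± 0.12 (adjusted p = 0.24, limma). For Dpf1 the mean of the second probe set, near the filter on low values, was lower in mixed A than in mixed B. It was 5.004 against 5.406 at P0 and 4.736 against 5.165 at P14, opposite to the main one. Markers of cell types differed between mixed A and mixed B as well. At P0, 4 of 8 neuronal markers were lower in mixed A and 2 higher, and 3 of 4 astrocyte and 2 of 4 endothelial markers were higher. The actin 3' to 5' difference did not overlap between the sides at P0, while that of Gapdh did. At P14, 5 of 8 neuronal markers were lower and 1 higher, and 3 of 5 astrocyte, 3 of 4 oligodendrocyte and 4 of 4 endothelial markers were higher, with a median of +0.88 relative to the median gene for oligodendrocytes. Their part in the differences of the 10 genes was not tested.

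**Figure D4:**
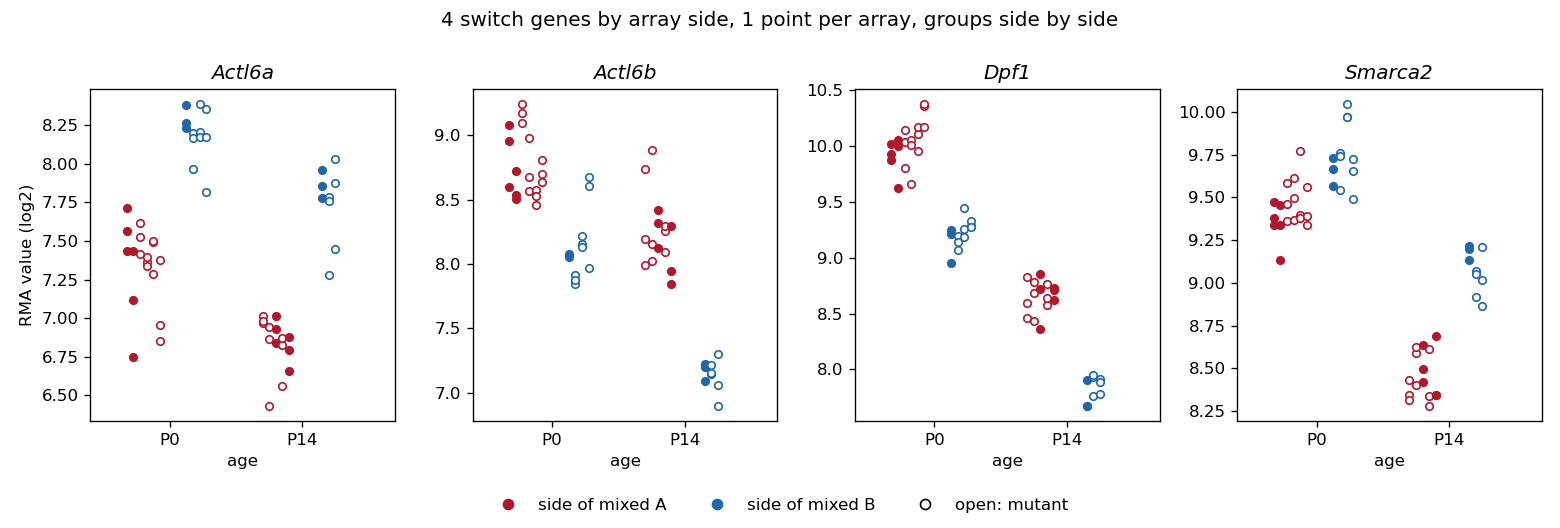
RMA values (log2, vertical axis) of Actl6a, Actl6b, Dpf1 and Smarca2 at P0 and P14 (horizontal axis) by array side, 1 point per array with the arrays of a group in 1 column, filled for wild types and open for mutants. At P14 all 4 genes keep the sides apart.

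Set against both mixed wild types, the inbred one was called by limma in 0 of the 10 genes at P0 and 0 at P14, beside 1% and 0.244% of genes. At an unadjusted p under 0.05, Actl6a and Smarca4 passed at P0 and none at P14.

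In the mutants the 10 genes showed no call that held against both mixed wild types, or against the inbred wild type for inbred groups. A mutant level that lies between mixed A and mixed B cannot be called by this rule. For Actl6b these stood at 8.88 and 8.07 at P0 and at 8.29 and 7.17 at P14. The absence of calls after birth therefore does not cover changes within such gaps. Over 18 groups, 0 of 180 tests were called by limma and 8 had an unadjusted p under 0.05. Of these groups, 4 hold arrays whose targeted gene goes against the label: 14-3-3 epsilon ko/ko and Ndel1 ko/cko at E14, Ndel1 ko/+ inbred at P0 and the mix-labelled group at P14. The lowest adjusted p was 0.129, for Smarca2 in Ndel1 ko/cko at P0. Of all genes, 0.0341% were called in Ndel1 ko/+ and 0.0426% in Dcx ko/Y at E14, and 0% in the other groups of that age. At P0 the share was 4.04% in Ndel1 ko/+, 0.84% in Ndel1 ko/cko, 0.331% in Lis1 ko/cko, 0.255% in Ndel1 ko/+ inbred, 0.0255% in 14-3-3 epsilon ko/ko inbred and in Dcx ko/Y, and 0% in Lis1 ko/+. At P14 it was 6.32% in Lis1 ko/cko, 0.114% in the mix-labelled group, 0.0895% in Ndel1 ko/cko and 0% in both heterozygotes.

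Each mutant was then set against the wild type of its own array side, a comparison chosen after the sides had been seen. Smarca4 was higher in Ndel1 ko/cko than in mixed B at P0 (+0.46 ± 0.08, adjusted p = 0.00198, limma), where 3.67% of genes were called. Its arrays were at 10.48, 10.62 and 10.55 against 9.97, 10.16 and 10.15, with no overlap. Ss18 was lower in Lis1 ko/cko than in mixed A at P14 (-0.44 ± 0.11, adjusted p = 0.0148, limma), where 13.9% of genes were called. The other 8 genes were called in no mutant group under this comparison.

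Smarca4, the ATPase that progenitors depend on, also fell further after birth in both conditional mutants than in the mixed wild type of their array side. In mixed A it went from 10.34, 10.48 and 10.46 at P0 to 9.99, 9.92 and 9.83 at P14, and in Lis1 ko/cko from 10.67, 10.71 and 10.65 to 9.54, 9.63 and 9.98. The difference of the 2 steps, tested as an interaction over all 78 arrays, was -0.44 ± 0.13 (adjusted p = 0.0276, limma), beside 7.59% of 13052 genes called. In mixed B it went from 9.97, 10.16 and 10.15 to 9.63, 9.59 and 9.45, and in Ndel1 ko/cko from 10.48, 10.62 and 10.55 to 9.36, 9.52 and 9.38. That difference was -0.59 ± 0.13 (adjusted p = 0.0107, limma), beside 0.835% of genes. In both mutants all 3 arrays lie above those of their mixed wild type at P0, and at P14 2 of 3 lie below them all. The inbred wild type, on the array side of mixed A, spanned 10.53 to 10.76 at P0, a range that holds the Lis1 ko/cko arrays. Its mean went from 10.62 at P0 to 9.84 at P14, and its step was not tested against that of Lis1 ko/cko.

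The heterozygotes, compared in the same way after these values had been seen, gave +0.01 ± 0.13 for Lis1 ko/+ (adjusted p = 1, limma) and -0.12 ± 0.13 for Ndel1 ko/+ (adjusted p = 0.751, limma). The second probe set of Smarca4 gave -0.23 ± 0.20 in Lis1 ko/cko (adjusted p = 0.579, limma) and -0.61 ± 0.20 in Ndel1 ko/cko (adjusted p = 0.149, limma), neither called. Leaving out single arrays ended the Lis1 call in 7 of 12 runs. These were mixed A replicates 1 (-0.40) and 3 (-0.46) at P0, mixed A replicates 1 (-0.40) and 2 (-0.44) at P14, Lis1 ko/cko replicate 2 at P0 (-0.42) and Lis1 ko/cko replicates 1 (-0.35) and 2 (-0.40) at P14. Without Lis1 ko/cko replicate 3 at P14, Phf10 (-0.35 ± 0.12) and Ss18 (-0.45 ± 0.16) were called as well. The Ndel1 call was lost without mixed B replicate 1 at P0 (-0.53 ± 0.14, adjusted p = 0.0717, limma). The P0 to P14 step of mixed A against that of mixed B was called for 0 of the 10 genes (limma), with Smarca2 alone at an unadjusted p under 0.05, beside 11.9% of genes.

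**Figure D5:**
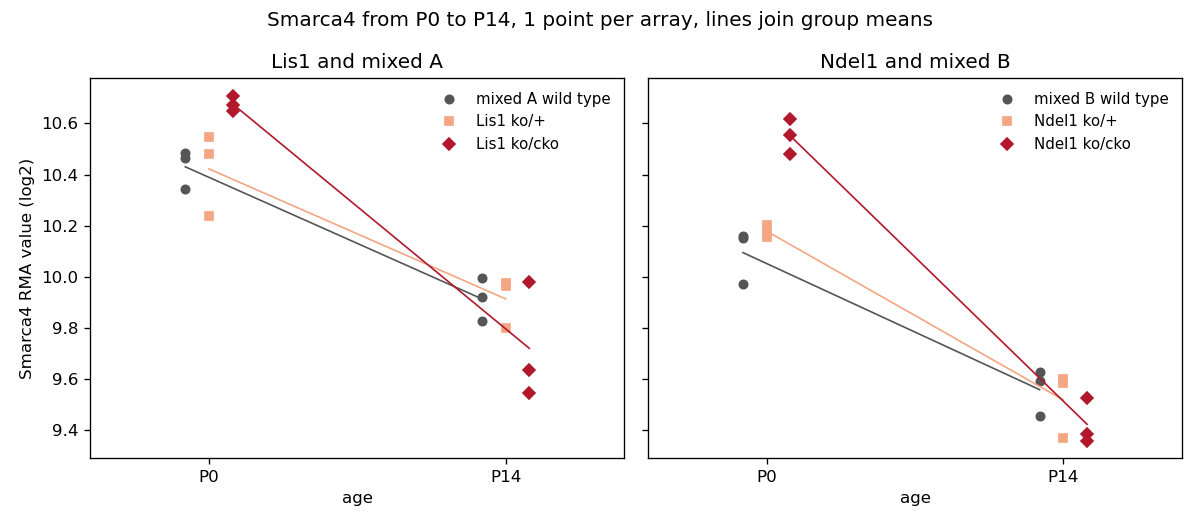
Smarca4 RMA values (log2, vertical axis) at P0 and P14 (horizontal axis) in Lis1 mutants with mixed A (left) and Ndel1 mutants with mixed B (right), 1 point per array, with lines between group means. The ko/cko arrays start above their wild type and end at or below it, and the ko/+ lines run close to the wild type.

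Over the 26 group means, which share processing and array side, the likeness between the genes of the switch was described by correlation. Phf10 and Smarca4 followed each other most closely (Pearson r = 0.95), then Dpf2 and Ss18 (r = 0.93), Ss18l1 and Smarca4 (r = 0.89) and Ss18l1 and Dpf1 (r = 0.88), while Actl6a and Actl6b gave r = -0.24. After the mean of each age was taken out, Actl6a and Dpf1 ran opposite (r = -0.94) and Actl6b followed Dpf1 (r = 0.84). Among 12507 genes the group means of Actl6a were most like those of Ssbp1 (r = 0.99), which encodes a mitochondrial DNA-binding protein, followed by Mzt1, Zfp317 and Dtymk. Those of Actl6b were most like Tbc1d2b (r = 0.91), followed by Pknox1, Podxl2 and Vac14. With age means taken out the nearest were Fubp3 for Actl6a (r = 0.98) and Cbs for Actl6b (r = 0.92). These are descriptions over groups of 3 ages and 2 array sides, with 1 probe set for each gene.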

How the data were processed

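The authors deposited log2 values of 45101 probe sets on 78 arrays, summarised by RMA per the submitters' processing notes, its version not being given in the sources used here. The sorted values of 2 arrays differed by 0.0342 log2 units (median root mean square) at the same age and by 0.157 at different ages. The chip annotation gave 34945 probe sets a single gene. Models were fitted with limma 3.58.1 in R 4.3.3 on the log2 values. Comparisons at an age used its arrays, development the wild-type arrays, and differences of steps all 78. A variance trend was fitted, and Benjamini-Hochberg adjustment ran over the genes with a group mean of at least 5.253, the median value of the table. Where both mixed wild types are controls, or both are followed from age to age, the larger p-value of 2 agreeing differences was used, and 1 otherwise. The adjustment ran on that joint p-value. The procedure was tested on simulated data. All 10 genes were named by rule, and these genes, the lists and the tests were chosen with earlier results of these data known. Alternatives were the filter, every probe set, 1 fit of all arrays, quantile normalisation, no variance trend, the replicate number as a block, each mixed wild type alone, and leaving out arrays. Ss18 has no promoter sequence here, and protein sequences were not used here.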

Additional observations from a re-analysis of the deposited data

Results flagged for a closer look

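The change of Smarca4 from P0 to P14 differed between groups in 2 tests of the difference itself. It was -0.44 ± 0.13 log2 units further in Lis1 ko/cko than in mixed A (adjusted p = 0.0276, limma), and -0.59 ± 0.13 further in Ndel1 ko/cko than in mixed B (adjusted p = 0.0107, limma). The controls of these tests are separate groups, while the spread was estimated over all 78 arrays in both. The inbred wild type was a control in neither test. All groups hold 3 arrays, so single samples were not examined as outliers.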

How the results depend on the processing

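Without a filter on low values and with a filter at 7.627 log2 units, all 34 called changes and steps kept their call and sign. Quantile normalisation kept 29 of 34, with 5 of the 10 genes called between mixed A and mixed B at P14 in place of 8, and 1 in mutants at P14 (Ss18 in Lis1 ko/cko). With every probe set, 1 gene was called between the inbred and both mixed wild types at P14, and 1 in the step of mixed A against mixed B. Against mixed A alone 15 tests in mutants were called at P0 and 18 at P14. Against mixed B alone the counts were 10 and 19, and 6 for the inbred wild type at each age. These counts include comparisons with a wild type of the other array side. Mixed A against mixed B itself called 4 of the 10 genes at P0 and 8 at P14, beside 28.7% and 52.7% of all genes. The share of all genes called against each mixed wild type alone is not given here. The wild type of the same array side, chosen after seeing the data, gave 1 at P0 and 1 at P14. With the replicate number as a block 32 of 34 calls were kept, and Smarca2 from P0 to P14 (-0.48 ± 0.11, adjusted p = 0.055, limma) and Actl6a in the inbred wild type (-0.38 ± 0.18, adjusted p = 0.0706, limma) were lost. The numbers do not pair the samples, as all 3 correlations of a pair of groups passed 0.1 in 1 of 28 pairs at E14, 0 of 45 at P0 and 2 of 28 at P14. In 1 fit of all 78 arrays the inbred changes of Actl6a and Ss18 were lost (adjusted p = 0.0504 and 0.0708, limma). Leaving out 1 array gave 5 to 5 calls from E14 to P0, 7 to 7 from P0 to P14, 6 to 8 in the inbred wild type, 0 to 0, 4 to 4 and 6 to 8 between mixed A and B at E14, P0 and P14, 0 to 3 in the Lis1 step, 0 to 1 in the Ndel1 step and 0 to 1 in mutants at P14. The causes were not tested. Probe sets near the filter limit what can be said of Dpf3.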
